A study of Rattus norvegicus with 4 samples.

Results

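Enzymes that make cholesterol, fatty acids and ceramides were compared between rat peri-implant epithelium and junctional epithelium. The gene set held 37 symbols chosen for their roles in lipid synthesis, with earlier results of these data known. A member was measured where a probe set of the array carried its symbol alone. By this rule 33 of the 37 were measured, among 14217 genes in all, each read from its brightest probe set (highest mean of the 4 arrays). Hmgcs1, Sptlc1 and Sptlc2 were not analysed here, and Scd1 is an older name of the measured gene Scd.

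Peri-implant epithelium lines the soft tissue around a titanium alloy implant set in place of an extracted upper molar (2 arrays). Junctional epithelium is the collar that attaches gingiva to a natural tooth (2 arrays). All samples came from male Sprague Dawley rats that were 4 weeks old at surgery and were labelled as having had tooth extraction and implant placement. Tissue was taken 4 weeks later from 20 rats, frozen, and captured by laser microdissection. The labels do not say how many animals stand behind each array or on which side of the mouth the junctional tissue lay. The p-values therefore measure only the spread between these samples, which may be technical.

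Cholesterol is built from acetyl-CoA by the mevalonate pathway, which ends in farnesyl diphosphate, and then by a run of enzymes that turn squalene into the sterol ring and trim it. Transcription of these enzymes is driven by SREBP factors, which Scap escorts and Insig1 retains in the endoplasmic reticulum when sterols are plentiful. Fatty acids are made by Acly, Acaca and Fasn and then lengthened by Elovl and desaturated by Scd and Fads enzymes. Ceramides join a sphingoid base to a fatty acid. In stratified epithelia, cholesterol, fatty acids and ceramides are the lipids secreted to form a permeability barrier.

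Values are log2 signals as deposited, so a difference of 1 is a doubling, and differences are peri-implant minus junctional. The highest signal among 27 bacterial control probe sets, 6.42, served as the background level. Between 54.6% and 56.8% of 31042 probe sets exceeded it on each array, and Pearson's r across probe sets was 0.911 within peri-implant and 0.914 within junctional epithelium, against 0.882 to 0.887 between them. Below, rose and fell are used of genes for which limma's test with an intensity trend in its variance prior gave an adjusted p under 0.05 (Benjamini-Hochberg over all probe sets). With 2 arrays in each group, precision is limited throughout. Of the 33 members, 31 lay above background on all 4 arrays.

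Promoters of members with large differences and CCAAT matches are shown first, because SREBP acts on such genes together with the factor NF-Y, which recognises CCAAT. The window of Acat2, with the largest fall among members past the test, had no match and is not shown. The windows, from RefSeq sequence of GRCr8, run from 250 bases before to 50 bases after the annotated start, on the sense strand, and capitals mark CCAAT or its complement ATTGG.
Idi1 promoter (GRCr8 chr17:66547475-66547774, minus strand): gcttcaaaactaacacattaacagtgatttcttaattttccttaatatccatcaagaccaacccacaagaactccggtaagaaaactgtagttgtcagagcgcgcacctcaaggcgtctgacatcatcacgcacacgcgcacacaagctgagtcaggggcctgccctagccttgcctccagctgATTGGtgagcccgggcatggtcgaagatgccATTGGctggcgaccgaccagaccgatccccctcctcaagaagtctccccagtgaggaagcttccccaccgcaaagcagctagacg
Hsd17b7 promoter (GRCr8 chr13:84722705-84723004, minus strand): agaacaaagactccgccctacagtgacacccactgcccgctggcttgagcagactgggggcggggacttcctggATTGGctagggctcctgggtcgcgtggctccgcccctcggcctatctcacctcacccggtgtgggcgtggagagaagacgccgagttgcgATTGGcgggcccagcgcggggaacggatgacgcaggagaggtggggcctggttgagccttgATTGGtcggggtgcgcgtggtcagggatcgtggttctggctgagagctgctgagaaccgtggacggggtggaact
Nsdhl promoter (GRCr8 chrX:155817110-155817409, plus strand): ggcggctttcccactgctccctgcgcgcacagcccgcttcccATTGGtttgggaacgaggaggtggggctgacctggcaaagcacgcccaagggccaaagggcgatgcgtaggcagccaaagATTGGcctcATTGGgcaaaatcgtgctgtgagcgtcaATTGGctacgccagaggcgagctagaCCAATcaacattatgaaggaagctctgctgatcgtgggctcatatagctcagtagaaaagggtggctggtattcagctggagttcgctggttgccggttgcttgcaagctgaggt

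The Idi1 window held 2 matches, the Hsd17b7 window 3 and the Nsdhl window 5. These windows were picked with matches, while Acat2, Cyp51 and Dhcr7 also fell and had none, and Elovl5, which rose, had 2. CCAAT was in 5 of 8 windows of members that fell (62.5%) and in 9 of 16 of members that did not pass (56.2%). Promoter windows were found for 25 of the 33 members, of which 15 (60.0%) held CCAAT on either strand, and for 12 of the 15 measured cholesterol enzymes, of which 9 (75.0%) did. Among all 33469 windows of that length in the table the share was 37.5%. The core of the sterol regulatory element, searched as TCACNCCAC on both strands, was in none of the 25 members' windows and in 1.12% of all windows. With a match that rare, its absence from 25 windows cannot set these genes apart from others. Sites with other letters were not searched, so the absence does not show that the element is lacking. A match is a description of letters and not a mapped site.

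Peri-implant epithelium had lower transcript signals of the cholesterol-making enzymes in the member list. Of 15 measured enzymes from Acat2 to Dhcr7, 9 fell, 0 rose and 6 did not pass, by 1.25-fold to 2.46-fold among those that fell. The background share of falling genes was 4.80% of 14217 genes, and 6.88% of the 9506 genes with a mean above the background level. The median difference was -0.53 over the 15 enzymes and 0.05 over all genes. All 15 differences were negative, against 46.2% of all genes, and in 14 of the 15 both peri-implant arrays lay below both junctional arrays, against 25.2% of all genes. The exception was Mvd. The list and the intensity trend were chosen with earlier results of these data known, so these shares describe and do not test. With limma's default prior 0 of 31042 probe sets passed (5247 had an unadjusted p under 0.05), and the 9 enzymes that fell had adjusted p from 0.157 to 0.417 there. Without peri-implant replicate 1, 3 of the 15 passed as lower (Acat2, Fdps and Idi1). Without peri-implant replicate 2, Fdps and Idi1 did, and without junctional replicate 1 or without junctional replicate 2, 0 did. Those fits rest on 3 arrays, and their calls over all probe sets came to between 73 and 353, against 2762 with 4 arrays.

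**Figure D1:**
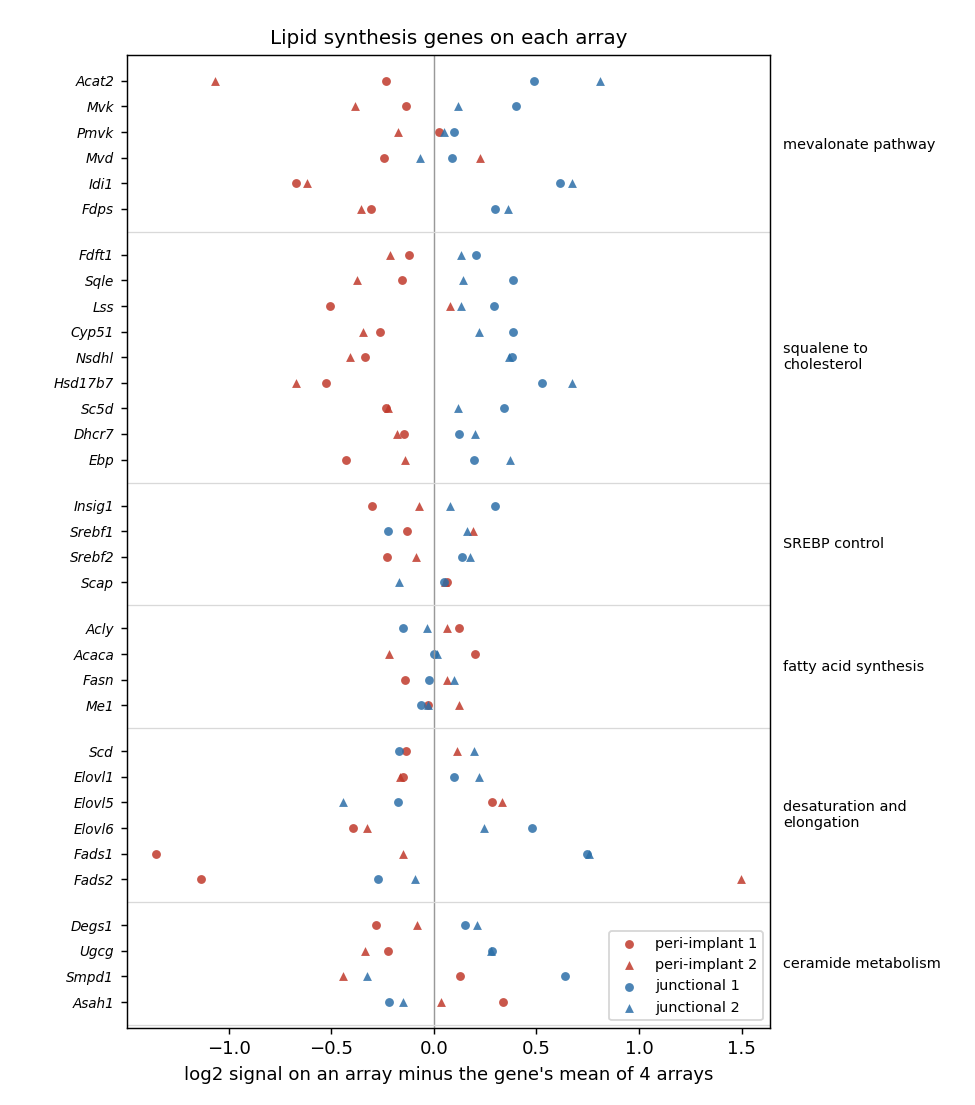
Log2 signal of each member on each array minus that gene's mean of the 4 arrays (x axis), for 33 genes grouped by role (rows), with red for peri-implant and blue for junctional arrays. In the mevalonate and squalene groups the red points lie left of the blue for every gene but Mvd, while in the fatty acid synthesis group the colours mix for Acaca, Fasn and Me1.

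In the mevalonate pathway 3 of 6 measured enzymes fell. Acat2, the cytosolic thiolase that opens the pathway by joining acetyl-CoA units, had 9.19 and 8.35 in peri-implant epithelium, against 9.91 and 10.23 in junctional epithelium. The groups did not overlap, though the peri-implant arrays lay apart from each other. Acat2 fell by 1.30 on the log2 scale (SE 0.25, adjusted p = 0.0133 with limma), the largest fall among the enzymes of the route. Idi1, the isomerase that interconverts the isoprene units, had 8.52 and 8.58 in peri-implant epithelium, against 9.81 and 9.87 in junctional epithelium. Its replicates lay close together in each group, and it fell by 1.29 (SE 0.16, adjusted p = 0.00141 with limma), or 2.44-fold. Fdps, which condenses those units to farnesyl diphosphate, had 12.78 and 12.73 in peri-implant epithelium, against 13.38 and 13.45 in junctional epithelium. This fall of 0.66 (SE 0.07, adjusted p = 0.000712 with limma) had the smallest adjusted p among the members.

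The kinases and decarboxylase between these steps did not pass. Mvk, mevalonate kinase, had 8.13 and 7.88 in peri-implant epithelium, against 8.67 and 8.38 in junctional epithelium, without overlap (difference -0.52, 95% interval -1.03 to -0.0047). Intervals are not adjusted for the number of tests. Pmvk, which adds the next phosphate, differed by -0.15 (interval -0.39 to 0.09). Mvd, the decarboxylase, had 8.56 and 9.03 in peri-implant epithelium, against 8.89 and 8.73 in junctional epithelium. The groups overlapped, and the difference was -0.02 (interval -0.49 to 0.45).

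From squalene onward 6 of 9 enzymes fell, and all 9 had peri-implant arrays below junctional arrays. Sqle, the squalene epoxidase, a rate-limiting step of the pathway, had 10.23 and 10.01 in peri-implant epithelium, against 10.77 and 10.53 in junctional epithelium, a fall of 0.53 (SE 0.14, adjusted p = 0.0390 with limma). Cyp51, which strips a methyl group from lanosterol, had 12.05 and 11.96 in peri-implant epithelium, against 12.70 and 12.53 in junctional epithelium, and fell by 0.61 (adjusted p = 0.00361 with limma). Nsdhl, a sterol dehydrogenase of the demethylation complex, had 10.08 and 10.01 in peri-implant epithelium, against 10.80 and 10.78 in junctional epithelium, and fell by 0.75 (adjusted p = 0.00414 with limma). For these enzymes the gap between the groups was wider than the gap between replicates.

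Hsd17b7, the reductase that acts after Nsdhl, had 7.29 and 7.14 in peri-implant epithelium, against 8.34 and 8.48 in junctional epithelium. It fell 2.29-fold, the largest change of the squalene-to-cholesterol group (adjusted p = 0.0195 with limma). Ebp, the sterol isomerase, had 9.52 and 9.81 in peri-implant epithelium, against 10.14 and 10.32 in junctional epithelium, and fell by 0.57 (adjusted p = 0.0416 with limma). Dhcr7, the reductase of the last step to cholesterol, had 11.56 and 11.53 in peri-implant epithelium, against 11.82 and 11.91 in junctional epithelium. Its fall of 0.32 was small and close to the threshold (adjusted p = 0.0487 with limma). Dhcr7 did not pass with quantile normalization, with a prior that was not robust or with arrays centred on their medians. Sqle did not pass with median centring. Both differences stayed negative with quantile normalization and with median centring, and a change of prior leaves a difference as it is. None of the 6 passed in any fit that left out 1 array.

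Fdft1, which makes squalene, Lss, which folds it into lanosterol, and Sc5d, a desaturase, did not pass. Sc5d came nearest, with 9.97 and 9.98 in peri-implant epithelium, against 10.55 and 10.32 in junctional epithelium (difference -0.46, adjusted p = 0.0556 with limma), and 1 of its 2 other probe sets passed as lower (difference -0.62, adjusted p = 0.0341 with limma). The interval of Fdft1 ran from -0.60 to -0.07 and that of Lss from -0.92 to 0.07.

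**Figure D2:**
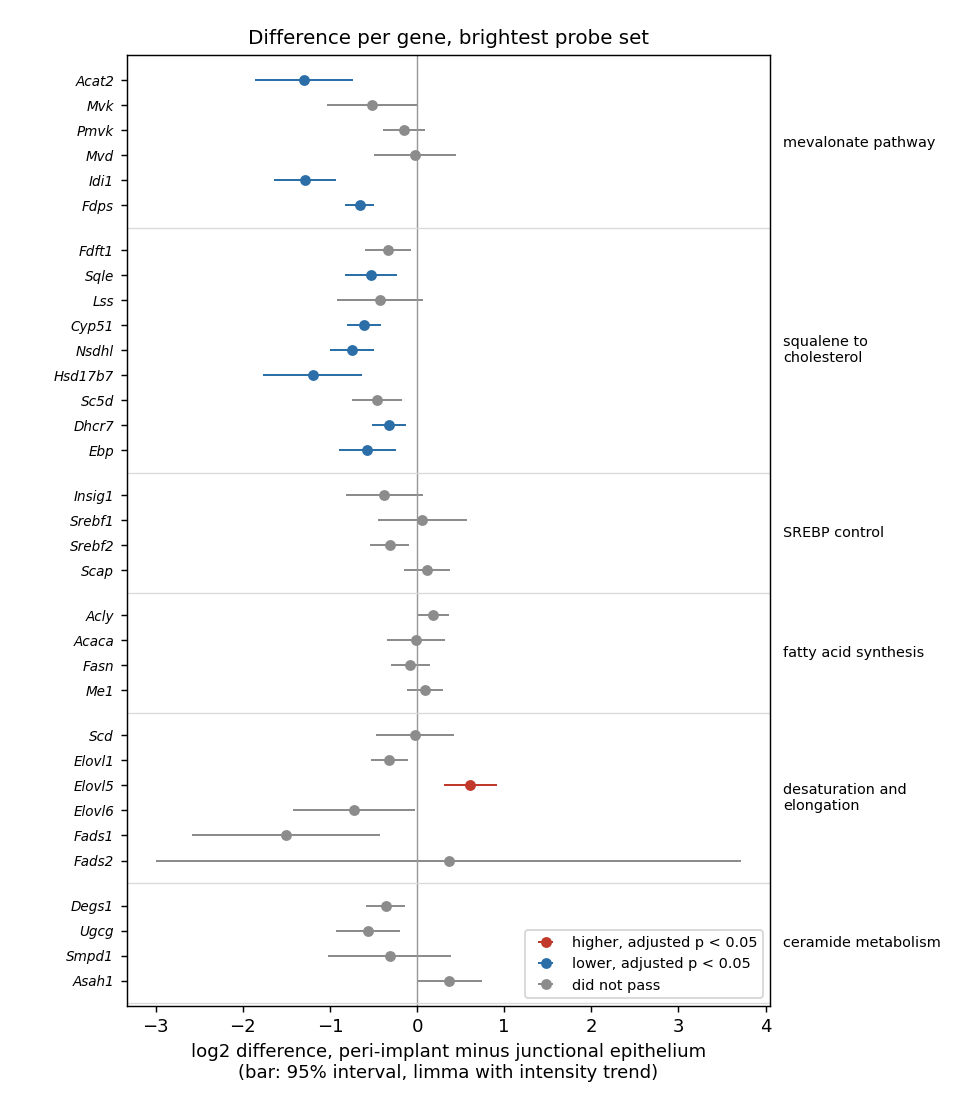
Difference in log2 signal, peri-implant minus junctional epithelium (x axis), for each of 33 members (rows, by role), with bars for the 95% interval of limma's fit with an intensity trend. Blue marks the 9 that fell and red Elovl5, which rose, while the wide bar of Fads2 belongs to a gene below background on every array.

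The genes that control SREBP did not pass, 0 of 4 in either direction. Srebf2, the isoform that mainly drives cholesterol enzymes, had 10.88 and 11.02 in peri-implant epithelium, against 11.25 and 11.29 in junctional epithelium. The groups did not overlap, and the difference of -0.31 had an interval of -0.54 to -0.09 (adjusted p = 0.0847 with limma), and Srebf2 passed as lower with dim probe sets left out. Insig1, itself a target of SREBP, showed the largest difference of this group. It had 8.40 and 8.63 in peri-implant epithelium, against 9.01 and 8.79 in junctional epithelium, without overlap (difference -0.38, interval -0.82 to 0.06). Srebf1, the isoform tied to fatty acid synthesis, differed by 0.06 (interval -0.45 to 0.58), and Scap by 0.12 (interval -0.14 to 0.38). Signals of transcripts do not show how much SREBP was processed.

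The enzymes of fatty acid synthesis did not pass by their brightest probe sets, 0 of 4, with a median difference of 0.04. Fasn, the fatty acid synthase, had 11.42 and 11.63 in peri-implant epithelium, against 11.54 and 11.66 in junctional epithelium. The groups overlapped, and the difference of -0.08 had an interval of -0.30 to 0.15. Acaca, which makes malonyl-CoA, had 10.47 and 10.05 in peri-implant epithelium, against 10.27 and 10.29 in junctional epithelium, and the junctional values lay between the peri-implant ones. Acly, which supplies cytosolic acetyl-CoA to both fatty acid and cholesterol synthesis, showed the largest difference here. It had 12.53 and 12.47 in peri-implant epithelium, against 12.26 and 12.37 in junctional epithelium (difference 0.19, interval 0.0030 to 0.37, adjusted p = 0.195 with limma). Me1, malic enzyme, a source of NADPH, differed by 0.09 (interval -0.12 to 0.30).

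Probe sets disagreed for Fasn and Acaca. A dimmer probe set of Fasn fell by 0.87 (adjusted p = 0.0120 with limma), with 8.60 and 8.66 in peri-implant epithelium, against 9.51 and 9.48 in junctional epithelium. A dimmer probe set of Acaca fell by 1.46 (adjusted p = 0.0147 with limma), with 6.79 and 7.04 in peri-implant epithelium, against 8.16 and 8.60 in junctional epithelium. With the mean of a gene's probe sets in place of the brightest, both genes passed as lower. The result for Fasn and Acaca thus depends on the probe set read.

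Among the enzymes of desaturation and elongation, Elovl5 rose and the other 5 did not pass. This share, 1 of 6, stands beside 6.60% of all genes that rose. Elovl5, which lengthens polyunsaturated fatty acids, had 10.35 and 10.41 in peri-implant epithelium, against 9.90 and 9.63 in junctional epithelium. It rose by 0.61 (SE 0.14, adjusted p = 0.0240 with limma), or 1.53-fold, and its other probe set rose by 1.06 (adjusted p = 0.0154 with limma). Elovl5 did not pass with arrays centred on their medians (adjusted p = 0.06675 with limma), nor without any 1 of the 4 arrays, and stayed positive in each of these fits.

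Fads1, which desaturates polyunsaturated fatty acids, did not pass. It had 5.23 and 6.44 in peri-implant epithelium, against 7.33 and 7.34 in junctional epithelium. A peri-implant array lay below background and the peri-implant replicates stood far apart, and the difference of -1.50 had an adjusted p = 0.0861 with limma. With signals raised to the background level the Fads1 difference was -0.91, and without peri-implant replicate 1 it was -0.90. Elovl6, which lengthens the products of Fasn, differed by -0.72 (interval -1.42 to -0.02), and Elovl1, which makes very long chains for ceramides, by -0.32 (interval -0.53 to -0.11). Neither had overlapping groups. Scd, a desaturase of saturated fatty acids, differed by -0.03 (interval -0.47 to 0.42) with overlapping groups. Scd2, a related gene outside the member list, was brighter, with means of 12.75 in peri-implant and 13.01 in junctional epithelium. It was lower without overlap and did not pass (difference -0.27, adjusted p = 0.0509 with limma), but passed as lower with quantile normalization. Fads2 lay below background on all 4 arrays.

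In ceramide metabolism 0 of 4 members passed. Ugcg, which adds glucose to ceramide, showed the largest difference. It had 8.88 and 8.77 in peri-implant epithelium, against 9.39 and 9.38 in junctional epithelium, without overlap (difference -0.56, interval -0.92 to -0.19, adjusted p = 0.0639 with limma). Degs1, the desaturase that completes ceramide, had 11.27 and 11.47 in peri-implant epithelium, against 11.70 and 11.76 in junctional epithelium (difference -0.36, adjusted p = 0.0512 with limma), and 1 of its 2 other probe sets passed as lower. Asah1, a lysosomal ceramidase, ran the other way by 0.37 (interval -0.0056 to 0.74). Smpd1, which releases ceramide from sphingomyelin, differed by -0.31 with overlapping groups.

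More than 1 probe set represented 18 members, and in 15 of them all probe sets had the same sign. The like share over all genes is not given here. The 15 include Fasn and Acaca, which differed in size, and Srebf2, whose other probe set lay below background on all 4 arrays. Of the 21 probe sets that were not the brightest, 7 passed as lower and 1 as higher, beside 4.16% and 4.74% of all probe sets. Cyp51 gave -0.61 and -0.65 from its 2 probe sets, and Idi1 gave -1.29 and -0.90. Fdft1, which did not pass by its brightest probe set, passed by the other (difference -1.14, adjusted p = 0.00370 with limma). Hsd17b7 and Nsdhl had a second probe set that did not pass, with differences of -0.22 and -0.30. The signs were mixed for Lss, Me1 and Scap.

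**Figure D3:**
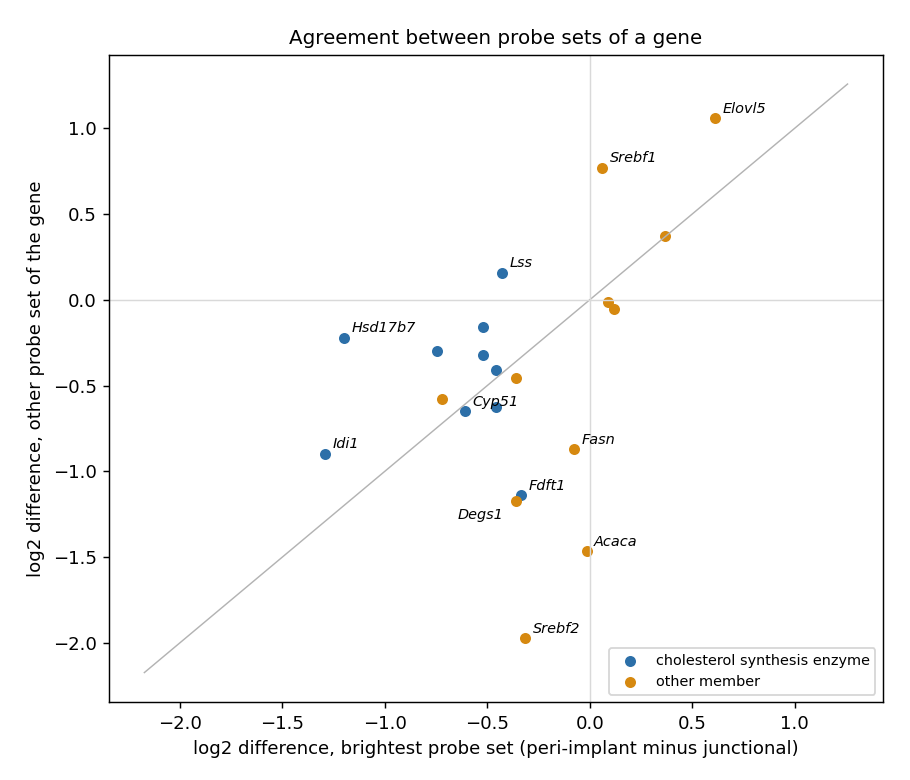
Log2 difference, peri-implant minus junctional, of each further probe set (y axis) against that of the brightest probe set of the same gene (x axis), for 21 probe sets of 18 members, with the line of equality in grey. Fasn and Acaca lie near 0 on the x axis and well below 0 on the y axis, and Cyp51 lies close to the line.

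Outside the member list, 84 of 100 further genes of lipid metabolism were measured, of which 6 rose (7.14%) and 7 fell (8.33%), with a median difference of 0.01. Of all genes 6.60% rose and 4.80% fell, and of genes with a mean above background 9.04% rose and 6.88% fell. Of the 84 genes, 75 had a group mean above background. Without peri-implant replicate 1 and without peri-implant replicate 2 only Msmo1 and Fa2h of these passed, and without junctional replicate 1 or 2 none of them did. In sterol synthesis 2 of 10 fell and 0 rose. Directions were mixed, with groups apart and lower in 5 of the 10 and apart and higher in 3. Among the higher was Lbr (difference 0.49, interval 0.06 to 0.93), which did not pass. Msmo1, the methylsterol oxidase that works with Nsdhl and Hsd17b7, had 9.21 and 9.42 in peri-implant epithelium, against 10.47 and 10.68 in junctional epithelium. It fell 2.40-fold (adjusted p = 0.000948 with limma). Mbtps2, a protease that frees SREBP from the membrane, fell by 0.50 (adjusted p = 0.0465 with limma), and did not pass with median centring.

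In sterol uptake, transport and efflux 2 of 17 rose and 0 fell. Lipa, the acid lipase that frees cholesterol from lysosomal esters, had 9.19 and 9.25 in peri-implant epithelium, against 8.31 and 8.30 in junctional epithelium, and rose 1.88-fold (adjusted p = 0.0146 with limma). Abca1, which exports cholesterol, rose by 0.70 (adjusted p = 0.0246 with limma). Its 3 other probe sets were also higher, by 0.29 to 0.37, without passing.

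In fatty acid activation and glycerolipid synthesis 3 of 28 rose and 3 fell. Dgat1 and Dgat2, which complete triacylglycerol, both rose. Dgat1 had 9.42 and 9.56 in peri-implant epithelium, against 8.42 and 8.51 in junctional epithelium (2.04-fold, adjusted p = 0.00689 with limma). Dgat2 had 11.74 and 11.76 in peri-implant epithelium, against 11.24 and 11.10 in junctional epithelium (1.49-fold, adjusted p = 0.00642 with limma). Hacd1, a dehydratase of fatty acid elongation, was at least 2.22-fold higher, because both junctional arrays lay below background, and its other probe set was higher by 0.74 without passing. Acsl3, an acyl-CoA synthetase, Agpat3, an acyltransferase, and Mlx, a partner of carbohydrate-responsive transcription factors, fell by 0.59, 0.50 and 0.86 on the log2 scale. The other probe set of Mlx gave -0.22 and did not pass, and for Agpat3, 2 of 5 other probe sets had the opposite sign. With the mean of a gene's probe sets, Hacd1, Mlx and Agpat3 did not pass, nor did Abca1.

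In sphingolipid metabolism 2 of 29 fell and 1 rose. Fa2h, which hydroxylates the fatty acids of sphingolipids, had 8.73 and 8.53 in peri-implant epithelium, against 10.00 and 10.20 in junctional epithelium, and fell 2.77-fold (adjusted p = 0.000814 with limma). Acer3, an alkaline ceramidase, fell by 0.65, with 1 of 2 other probe sets of opposite sign, and did not pass with the mean of its probe sets. Sphk1, a sphingosine kinase, rose by 1.09 (adjusted p = 0.0490 with limma), and did not pass with quantile normalization, median centring or a prior that was not robust.

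**Figure D4:**
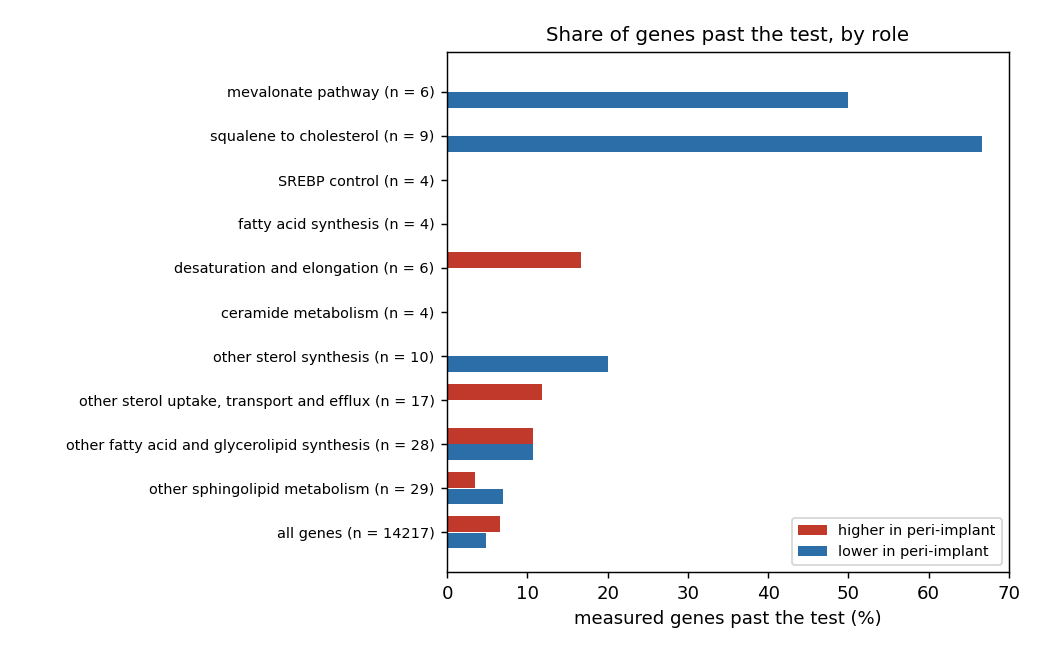
Share of measured genes that passed limma's test as higher (red) or lower (blue) in peri-implant epithelium (x axis, percent), for each role of the member list, the further lipid lists and all genes. The bars for falling genes stand for 3 of 6 genes of the mevalonate pathway and 6 of 9 from squalene to cholesterol (66.7%), against 4.80% of all genes.

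Markers of other cell types and layers also differed between these samples. Their counts stand beside 6.60% of all genes that rose and 4.80% that fell, and the lists are short. In bulk tissue, fewer cells of a type and less RNA per cell cannot be told apart. Stratified epithelium was present in both groups, with 9 of 9 measured markers (Krt5, Krt14 and others) above background on every array, 2 rising and 0 falling. Of 9 listed keratinizing layer markers 7 were measured, of which 4 fell (Krt1, Krt10, Kprp and Cdsn) and 1 rose (Tgm1). Their summed signal was 13.65 and 13.79 in peri-implant epithelium, against 14.29 and 14.32 in junctional epithelium (log2). Most of the peri-implant sum was Tgm1 (13.08 and 13.22), which rose, while Krt10 fell by 2.63. Macrophage and dendritic markers had 4 of 10 rising and 1 falling (Mrc1). Their summed signal was 13.64 and 13.65 in peri-implant epithelium, against 12.69 and 12.72 in junctional epithelium. Cd74 held the largest part of it, at 13.04 and 12.99 in peri-implant against 11.89 and 12.05 in junctional epithelium. Neutrophil markers had 5 of 7 rising, with sums of 16.68 and 16.49 in peri-implant against 15.30 and 15.31 in junctional epithelium. S100a8 and S100a9 held most of these sums, at 15.72 and 15.50 on peri-implant replicate 1. The sums thus follow these genes more than the list, in which Mmp8 and Mmp9 did not pass. The part of these cells and layers in the lower cholesterol enzyme signals was not tested. Adipocyte markers, 7 of 7 measured, including Adipoq and Plin1, did not exceed background as a group mean in either epithelium, and neither did the 4 measured salivary gland markers. Of the sebocyte markers 5 of 7 were measured, of which 2 rose (Plin2 and Mgst1) and 0 fell, and Mc5r lay below background. Of the fibroblast markers 2 of 7 rose and 1 fell, of the T and NK markers 1 of 5 rose, and 0 of 4 endothelial and 0 of 4 muscle markers passed. The label of junctional epithelium could not be checked with its own markers, because of 7 listed only Ambn and Amelx were measured, both below background. The junctional arrays did hold keratinizing layer signals, with Krt10 at 12.97 and 12.98 and Krt1 at 11.14 and 10.87. What these values say of the label was not tested.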

How the data were processed

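RNA of 4 laser-captured epithelium samples was amplified with the Ovation RNA Amplification System, labelled with biotin and measured on rat arrays, per the labels' protocols. Signals on 31099 probe sets were deposited on a log2 scale. What software made them is not given in the sources read, and each array had a linear mean of 500.19 after trimming 2% at each end, with values floored at 1. Low signals vary strongly at such a scale. The values were not normalized again.

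After removing 57 control probe sets, 31042 were fitted in R 4.3.3 with limma 3.58.1 (lmFit, eBayes with intensity trend and robust prior, two-sided, Benjamini-Hochberg adjustment, threshold 0.05). The fit was also run on simulated data whose variances followed the same intensity trend, so that run cannot check the choice of the trend. The members, lists, rule for naming genes and choice of the intensity trend over the default prior were made with earlier results of these data known. Genes came from the platform annotation, with a single symbol for 20826 probe sets, several for 436 and none for 9780. Each gene was taken from its brightest probe set. Values per array are given for members past the test and for the largest difference of each role, others in part. Further lipid genes are named where they passed, and Scd2 and Lbr besides. Groups and replicates came from sample titles. Alternatives covered the variance prior, replicate block, left-out arrays, scaling, low signals and the choice of probe set.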

Additional observations from a re-analysis of the deposited data

How the results depend on the processing

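For the 15 cholesterol enzymes the priors, replicate block, low-signal settings and 1 probe set per gene leave the differences as they are. Left-out arrays, scaling and the mean of probe sets can change them. There all 15 stayed negative, except Mvd without peri-implant replicate 1 (0.22) and without junctional replicate 1 (0.06). Counts of calls depended on the settings. With the default prior, counts were 0 for members lower and higher and for further lipid genes lower and higher. Leaving out 1 array at a time gave 0 to 3 members lower and 0 higher, and 0 to 2 further genes lower and 0 higher, with a median over members from -0.39 to -0.32. The replicate block gave 14 members lower, among them all 9, and leaving out dim probe sets also gave 14, with 10 further genes higher, where fewer features were tested. Median centring gave 0 members higher. The mean of a gene's probe sets moved the median over members to -0.47, from -0.34. Hsd17b7 did not pass there (difference -0.71), while Ugcg passed with 4 alternatives and Fads1 with the block. Degs1 and Sc5d passed as lower with the block, raised signals, dim probe sets left out and 1 probe set per gene. Of the fatty acid and ceramide enzymes 4 passed as lower with the block, 3 with dim probe sets left out and 4 with the mean of probe sets. Their median was -0.31 with that mean, against -0.05 in the main fit. Same-numbered arrays deviated with a correlation of 0.04 over probe sets, so the numbers were not taken to pair the samples. Of the 33 members 31 exceeded background on every array, and the 2 arrays a group limit precision.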
